A study of Mus musculus with 74 samples.

Results

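Mouse embryonic stem (ES) cells in which Nanog and Otx2 were activated together were compared with ES cells in which Nanog alone was activated, with LIF present throughout. The comparison rested on 6 of the 74 samples of the series, chosen by guide, LIF and Dox as named in the columns of the RNA-seq tables: 4 Nanog/Otx2 SunTag libraries and 2 Nanog SunTag libraries. A further 6 libraries of the same cells, grown with LIF and without Dox, were set beside them (3 of each guide set). All were E14Tg2a ES cells, a line of feeder-independent cells, grown on gelatine in serum with 10 ng/ml LIF. They carried a Dox-inducible SunTag activator, in which a dead Cas9 with a chain of GCN4 peptides recruits antibody fragments fused to the activation domain VP64. Nanog cells held a guide RNA (gRNA) for the Nanog promoter and were represented by clones C1 and C2. Nanog/Otx2 cells held this gRNA and one for the Otx2 promoter, and each of their clones, C1ON3 and C2ON3, had been derived from C1 or C2 and picked for good induction of both genes. Dox was given at 1 µg/ml. Cultures without Dox held the same constructs, so that they served as the controls for clone and guide. Library set names in the tables differed between the guide sets, so that the added gRNA, the cloning step and the library set cannot be told apart in a direct comparison. Libraries of 1 clone shared a cell line, and p-values measured the spread between these libraries only.

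Nanog is a homeodomain factor of the naive pluripotency network, which LIF maintains through STAT3. Otx2 is a homeodomain factor that is low in naive cells, rises as they leave that state for the formative epiblast, and later patterns the forebrain. Nanog and Otx2 are known to oppose each other in ES cells, and raising both in the same cells asks which responses to Nanog depend on Otx2 staying low. Nanog counts with Dox were lower in the Nanog/Otx2 libraries, as given below. Added Otx2 and a lower Nanog level therefore cannot be told apart in this comparison.

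The gRNA sites are shown because the position of each relative to the transcription start decides which promoter the activator reaches. They are given 5′ to 3′ on the strand of the gRNA, in lower case, with the adjacent NGG motif in capitals.

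Nanog gRNA site: cttcccactagagatcgccaGGG

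Otx2 gRNA site: aatgtagagcgtgcatttggAGG

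The Nanog site lay at chr6:122657269-122657288 of mm9 on the plus strand, 219 bases upstream of the Nanog start. The Otx2 site lay at chr14:49282649-49282668 on the minus strand, 102 bases upstream of an annotated Otx2 transcript start. Each had 1 exact match in the genome, outside any annotated exon or UTR.

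The 12 libraries with LIF held 6107512 to 51380795 estimated counts each, the smallest being Nanog/Otx2 −Dox C2ON3-1. Pou5f1, the core ES cell factor, had group means of 32653 to 44319 normalised counts, and Sox2 of 9784 to 12018, so that all 4 groups carried the defining ES cell transcripts. A pair of Nanog libraries stood apart. In Nanog −Dox C1-1 the deviation of genes from the mean of the 12 libraries followed GC content (Spearman's rho −0.77 across genes). Nanog +Dox C1-1 had the most negative relation to transcript length (rho −0.29 across genes) and held single pseudogenes at very high counts, as given below. Many calls rested on 1 of these libraries, and values without it are given beside many results below. The 4 Nanog/Otx2 libraries with Dox also followed GC content, at rho 0.13 to 0.48, against −0.06 and −0.19 in the Nanog libraries with Dox.

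Otx2 had the smallest adjusted p in the difference of the differences. In Nanog cells without Dox it had 908 normalised counts in C1 and 704 and 740 in C2. With Dox it was lower, at 308 in C1 and 166 in C2. Nanog/Otx2 cells without Dox held 1062 and 1059 in C1ON3 and 736 in C2ON3, which overlapped the Nanog cells. With Dox they held 3806 and 3546 in C1ON3 and 3471 and 3214 in C2ON3, above every other library with LIF.

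Group means (± SD) were 784 ± 109 (n = 3) and 237 ± 100 (n = 2) in Nanog cells without and with Dox, and 952 ± 187 (n = 3) and 3509 ± 243 (n = 4) in Nanog/Otx2 cells. With Dox, Otx2 was higher in Nanog/Otx2 than in Nanog cells by 3.92 on the log2 scale (SE 0.25, adjusted p = 8.99e-10, edgeR), a 15.4-fold ratio of geometric means. Without Dox the difference was 0.29 (SE 0.19, adjusted p = 0.348). The difference of the differences, which is how much further apart the guide sets were with Dox than without, was 3.63 (SE 0.30, adjusted p = 3.5e-07), and each clone pair gave it separately, at 3.35 for C1 and C1ON3 and 4.29 for C2 and C2ON3. The effect of Dox on Otx2 was −1.77 (adjusted p = 1.51e-04) in Nanog cells and 1.86 (adjusted p = 2.53e-06) in Nanog/Otx2 cells. An exact two-sided permutation test over the 6 libraries with Dox gave p = 0.133, which is the smallest value 4 against 2 libraries allow.

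Nanog itself had lower counts in the cells that carried both gRNAs, with and without Dox. Normalised counts were 29487 in C1 and 23345 and 21940 in C2 without Dox, and 93813 in C1 and 75226 in C2 with Dox. Nanog/Otx2 cells held 18320 to 20533 without Dox and 40628 to 48558 with Dox, so that the guide sets did not overlap in either condition. Such a lack of overlap was common, at 8040 of 16210 genes tested (49.6%) with Dox. The difference in Nanog with Dox was −0.94 (SE 0.38, adjusted p = 0.0705), and the call changed with the processing. With clone as a replicate block it was −0.95 (SE 0.29, adjusted p = 0.0129). It was also called in the 12 libraries with LIF alone (−0.90, adjusted p = 0.00242) and with DESeq2 (−0.97, adjusted p = 0.0464). It was not called with offsets for GC and length plus the block (−0.66, adjusted p = 0.095). The difference without Dox was −0.37 (adjusted p = 0.564), and the difference of the differences was −0.57 (SE 0.54, adjusted p = 0.757), so that the gap with Dox was not shown to exceed the gap without it. Nanog still rose with Dox in both guide sets, by 1.75 in Nanog cells (adjusted p = 0.0148) and 1.18 in Nanog/Otx2 cells (adjusted p = 0.031).

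**Figure D1:**
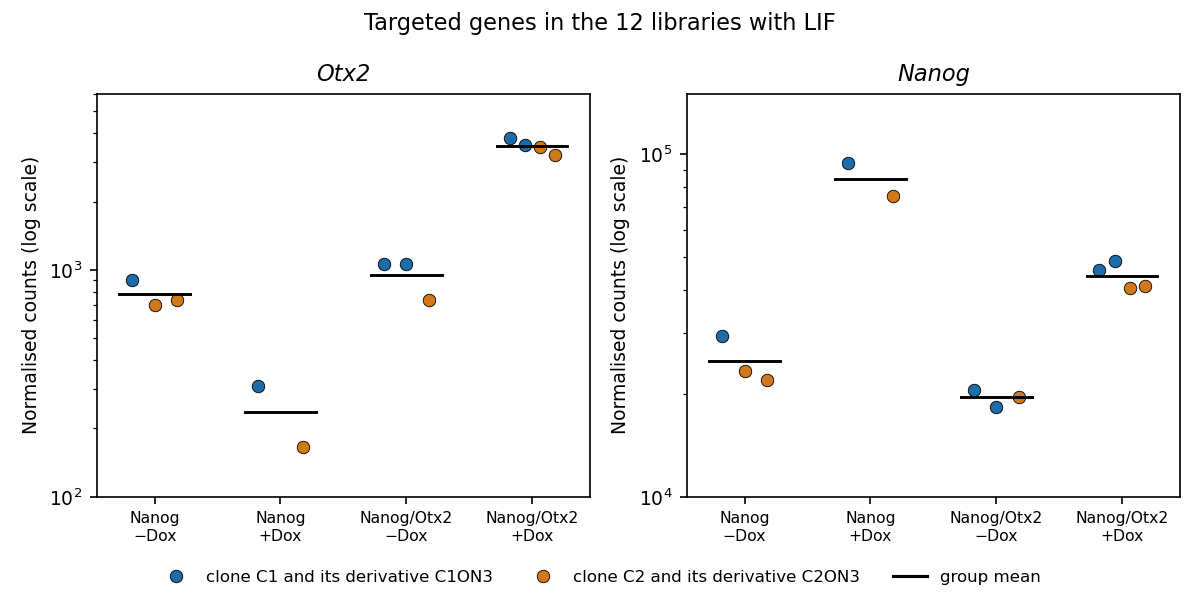
Normalised counts of Otx2 (left) and Nanog (right) on log axes in the 12 libraries with LIF, by guide set and Dox; points are libraries coloured by clone lineage and bars are group means. Otx2 lay between 3214 and 3806 in the 4 Nanog/Otx2 libraries with Dox and at 166 and 308 in the 2 Nanog libraries, while Nanog lay between 40628 and 48558 against 75226 and 93813.

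Across the transcriptome the guide sets differed widely with Dox, and most of this difference had the same direction without it. With Dox, 4624 of 16210 genes tested were called (28.5%), 2492 higher in Nanog/Otx2 cells (15.4%) and 2132 lower (13.2%). Without Dox, 2054 were called (12.7%), 1279 higher (7.89%) and 775 lower (4.78%). These comparisons shared no library. They had 1555 called genes in common, which were 33.6% of those called with Dox and 75.7% of those called without, and 1554 of them had the same sign. Of the 3069 genes called with Dox only, 2759 had a fold change of the same sign without Dox. Genes called higher with Dox had a median log2 difference of 0.94, and 0.52 without Dox. Genes called lower had medians of −0.77 and −0.39. Across all genes the differences correlated with Pearson's r = 0.67 and Spearman's rho = 0.61, given as a description, since genes are not independent and each pair of groups shared its clones, gRNAs and library sets. Leaving out Nanog +Dox C1-1 reduced the calls with Dox to 1800, of which 1705 were among the 4624.

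Few genes were called for a guide difference that changed with Dox. With 2 Nanog libraries with Dox, a gene without a call was not shown to be unchanged. The difference of the differences was called for 6 genes (0.0370%), 4 higher and 2 lower, while 1726 had an unadjusted p under 0.05. The 4 were Otx2, Kif21a, Ksr2 and AU022751, and the 2 were Gm3362 and Rpl36a-ps3. Dox itself moved 905 genes in Nanog cells (5.58%) and 2288 in Nanog/Otx2 cells (14.1%), comparisons with no library in common. They shared 485 called genes, 482 with the same sign, which were 53.6% of the former and 21.2% of the latter. The count of 6 rested on the 2 Nanog libraries with Dox, since it was 1 without C1-1 and 960 without C2-1, and it was 17 with the clone block.

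**Figure D2:**
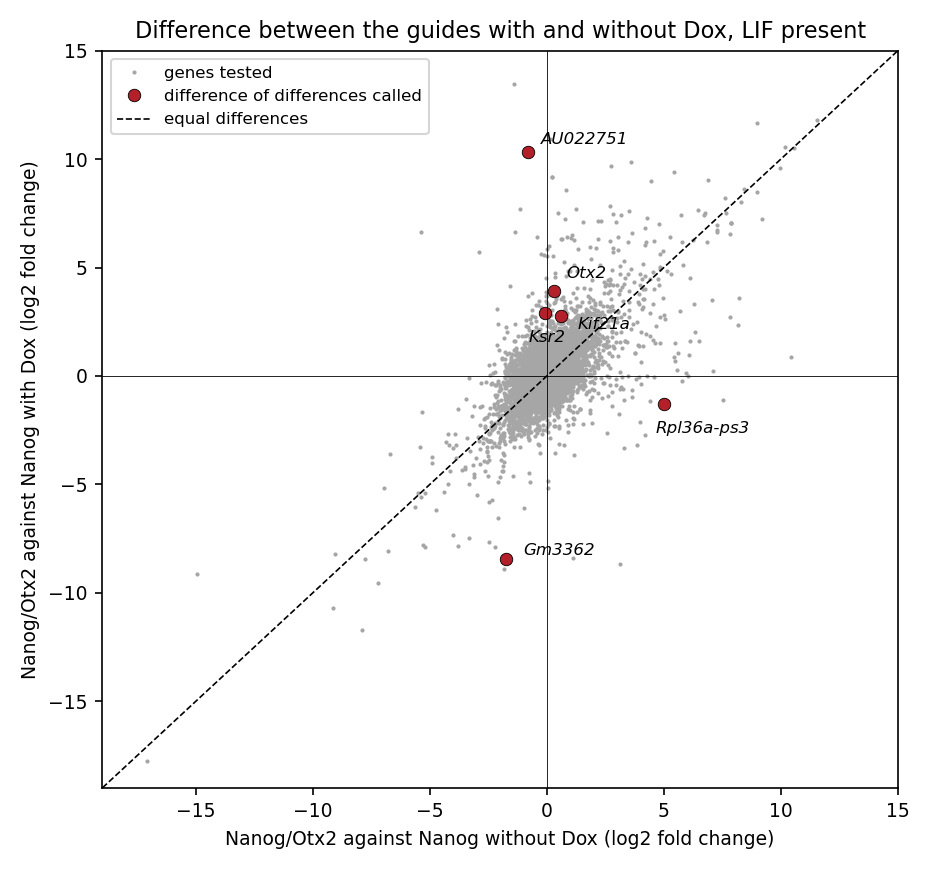
Log2 difference between Nanog/Otx2 and Nanog cells with Dox (y axis) against that without Dox (x axis) for 16210 genes, LIF present; red points are the 6 genes whose difference of the differences was called, and the dashed line marks equal differences. Otx2 lay at 3.92 with Dox and 0.29 without, and the bulk of genes spread along the dashed line.

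Kif21a, a kinesin that moves cargo along microtubules in neurons, was the most abundant of the called protein-coding genes after Otx2. In Nanog cells it had 153 normalised counts in C1 and 134 and 86.1 in C2 without Dox, and 56.0 in C1 and 117 in C2 with Dox. In Nanog/Otx2 cells it had 209 and 202 in C1ON3 and 120 in C2ON3 without Dox, then 699 and 573 in C1ON3 and 618 and 535 in C2ON3 with Dox. The 4 libraries with both genes activated lay above all others, and the groups without Dox overlapped. The difference was 2.75 with Dox (SE 0.28, adjusted p = 5.72e-07), 0.59 without (adjusted p = 0.123), and 2.16 (SE 0.37, adjusted p = 0.0184) as the difference of the differences. Clone pairs gave 3.05 and 2.13.

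The same contrast without LIF, in libraries that the test above did not compare, gave Kif21a a difference of the differences of 1.97 (SE 0.29, adjusted p = 0.00914). Its level there was higher throughout. Nanog cells had 1632 to 1866 normalised counts without Dox and 827 to 972 with Dox, and Nanog/Otx2 cells 963 to 1272 and 1746 to 2888. Dox thus went with lower Kif21a in every Nanog library and higher Kif21a in every Nanog/Otx2 library without LIF. Otx2 was 1.57 (SE 0.25, adjusted p = 0.00914) in that contrast, and Otx2 and Kif21a were the genes called both with and without LIF. Within 1 kb of any annotated start of Kif21a, the closest match to the Otx2 gRNA beside an NGG had 9 mismatches, a number that 80.8% of 16163 genes searched did not exceed, and the closest to the Nanog gRNA had 8 (37.6%). With LIF the Kif21a call was lost without Nanog +Dox C1-1 (1.77, SE 0.37, adjusted p = 0.329), without Nanog −Dox C2-1 (2.08, adjusted p = 0.0899) and in a fit of the 12 libraries with LIF alone (2.21, adjusted p = 0.53), where Otx2 was the 1 gene called. The difference with Dox stayed called without Nanog +Dox C1-1 (2.36, adjusted p = 8.57e-05).

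Ksr2, a scaffold of the RAF, MEK and ERK kinases, was low throughout. It had 16.1 to 20.1 normalised counts in Nanog cells without Dox and 3.73 and 4.49 with Dox, which came from 2 and 5 counts. Nanog/Otx2 cells held 9.26 to 18.8 without Dox and 25.6 to 39.7 with Dox, again above all other libraries. The difference of the differences was 2.99 (SE 0.45, adjusted p = 0.00615), with 2.61 and 3.51 in the clone pairs, and the call was lost without Nanog +Dox C1-1 (2.90, adjusted p = 0.0867) and in the 12 libraries alone (2.99, adjusted p = 0.521). The effect of Dox was −2.07 in Nanog cells (adjusted p = 0.00634) and 0.92 in Nanog/Otx2 cells (adjusted p = 0.0137). Without LIF the difference of the differences of Ksr2 was 0.33 (SE 0.30, adjusted p = 0.921).

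AU022751, an X-linked gene, is listed under a pair of overlapping identifiers, and its call did not hold once their reads were summed. Under the first identifier it had 0 counts in both Nanog libraries with Dox and 118 to 162 normalised counts in Nanog/Otx2 libraries, at least 34.3-fold higher against a floor of 3 counts per library, and the fitted difference of the differences was 11.12 (adjusted p = 0.00517). The reads of the Nanog libraries with Dox stood under the second identifier. Summed, the gene had 59.7 and 139 in Nanog cells with Dox and 197 to 242 in Nanog/Otx2 cells, and 48.7 to 101 and 74.1 to 86.5 without Dox. The summed difference with Dox was 1.11 (SE 0.28, adjusted p = 0.00455), and the difference of the differences was 0.93 (SE 0.38, adjusted p = 0.391).

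Both genes called lower were pseudogene entries, whose reads can be shared with parent genes and near copies, so that their levels are uncertain. Gm3362 on chromosome 15 had 18830 normalised counts in Nanog +Dox C1-1 and 1510 in C2-1, 51.2 to 431 in Nanog cells without Dox, and 21.9 to 92.6 in all Nanog/Otx2 libraries. The difference of the differences was −6.72 (SE 1.14, adjusted p = 0.0184), and −4.03 (adjusted p = 0.676) without C1-1. Rpl36a-ps3 on chromosome 6 had 0, 0 and 59.9 in Nanog cells without Dox and 2490 and 285 with Dox, against 430 to 1296 in Nanog/Otx2 libraries. It differed between the guide sets without Dox (4.99, adjusted p = 9.35e-04), with no call with Dox (−1.28, adjusted p = 0.17). Its difference of the differences was −6.27 (adjusted p = 0.0423), and −5.17 (adjusted p = 0.0705) with the clone block. Of 22 ways of processing in which they were fitted, Gm3362 was called in 14 and Rpl36a-ps3 in 11, and without Nanog +Dox C1-1 Rpl36a-ps3 was −4.03 (adjusted p = 0.676).

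**Figure D3:**
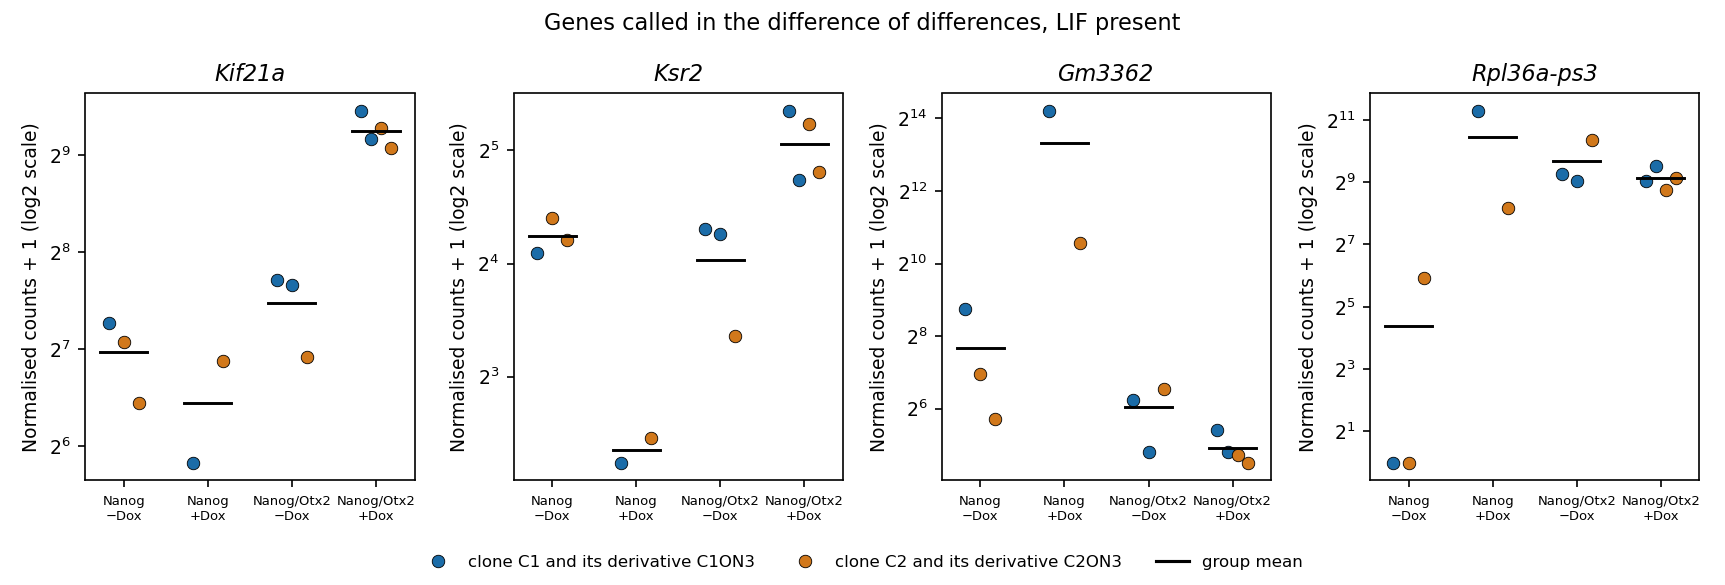
Normalised counts plus 1, on log2 axes, of Kif21a, Ksr2, Gm3362 and Rpl36a-ps3 in the 12 libraries with LIF; points are libraries coloured by clone lineage and bars are group means. Kif21a and Ksr2 were highest in the 4 Nanog/Otx2 libraries with Dox, at 535 to 699 and 25.6 to 39.7 normalised counts, while Gm3362 reached 18830 in 1 Nanog library with Dox.

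Pairing by clone added a set of moderate differences. The clone block called 17 genes, 5 of them among the 6. The genes of the next paragraph were called with this block, or had an adjusted p under 0.1 without it, and were chosen after their values were seen.

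Higher with both genes activated were Chrna4, Dagla, Iqsec3, Gdf1, Prcp, Acot1 and Adhfe1. Chrna4, a subunit of nicotinic acetylcholine receptors, had 29.5 to 38.7 normalised counts in Nanog cells without Dox and 26.1 and 47.5 with Dox, and went from 8.72 to 13.9 up to 59.5 to 102 in Nanog/Otx2 cells (block 3.09, SE 0.58, adjusted p = 0.0418). Dagla, which makes the endocannabinoid 2-arachidonoylglycerol, had 24.2 and 51.1 in Nanog and 101 to 166 in Nanog/Otx2 cells with Dox (block 2.00, SE 0.36, adjusted p = 0.0414). Iqsec3, an exchange factor for Arf GTPases at inhibitory synapses, had 1.87 and 8.97 against 29.0 to 47.7 (block 3.43, adjusted p = 0.0418). These transcripts were at low levels in all groups. Chrna4 was lower in Nanog/Otx2 cells without Dox (−1.81, adjusted p = 0.00621). Its difference with Dox was 1.10, and 0.76 without Nanog +Dox C1-1. Leaving out that library, with no block, gave uncalled differences of the differences of 2.59 for Chrna4, 1.68 for Dagla and 2.96 for Iqsec3. Gdf1, a TGF-beta family ligand whose transcript overlaps another gene, was at 0 in both Nanog libraries with Dox and at 10.2 to 64.8 in Nanog/Otx2 cells, at least 10.7-fold higher. Prcp, a lysosomal carboxypeptidase, was more abundant and moved less, with 497 and 509 against 811 to 888 (block 0.78, SE 0.14, adjusted p = 0.0414). The thioesterase Acot1 (block 1.26, adjusted p = 0.0475) and the dehydrogenase Adhfe1 (block 1.58, adjusted p = 0.0418) were also higher.

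S100a10, the partner of annexin A2, was lower in Nanog/Otx2 than in Nanog cells with Dox. It had 1791 to 1969 normalised counts in Nanog cells without Dox and 6746 and 4148 with Dox, whereas Nanog/Otx2 cells held 1472 to 2183 without Dox and 1682 to 2585 with Dox. The block value was −1.23 (SE 0.23, adjusted p = 0.0418). The effect of Dox was 1.51 in Nanog cells (adjusted p = 2.92e-04) and 0.14 in Nanog/Otx2 cells (adjusted p = 0.654). Dennd5b, of a family that activates Rab GTPases, had 1962 and 2195 against 696 to 842 with Dox (block −0.79, SE 0.15, adjusted p = 0.044). Sbds, a ribosome maturation factor (block −0.79, adjusted p = 0.0475), 1110001A16Rik (block adjusted p = 0.044) and Fam36a (block −1.40, adjusted p = 0.0418) were lower as well. Leaving out Nanog +Dox C1-1, with no block, gave uncalled differences of the differences of −0.99 for S100a10, −0.70 for Dennd5b and −0.82 for 1110001A16Rik. Ftl1, a ferritin light chain, was carried by a single library, with 15212 normalised counts in Nanog +Dox C1-1 and 181 to 461 in the other 11 libraries with LIF, and was not called (−4.89, adjusted p = 0.0639).

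**Figure D4:**
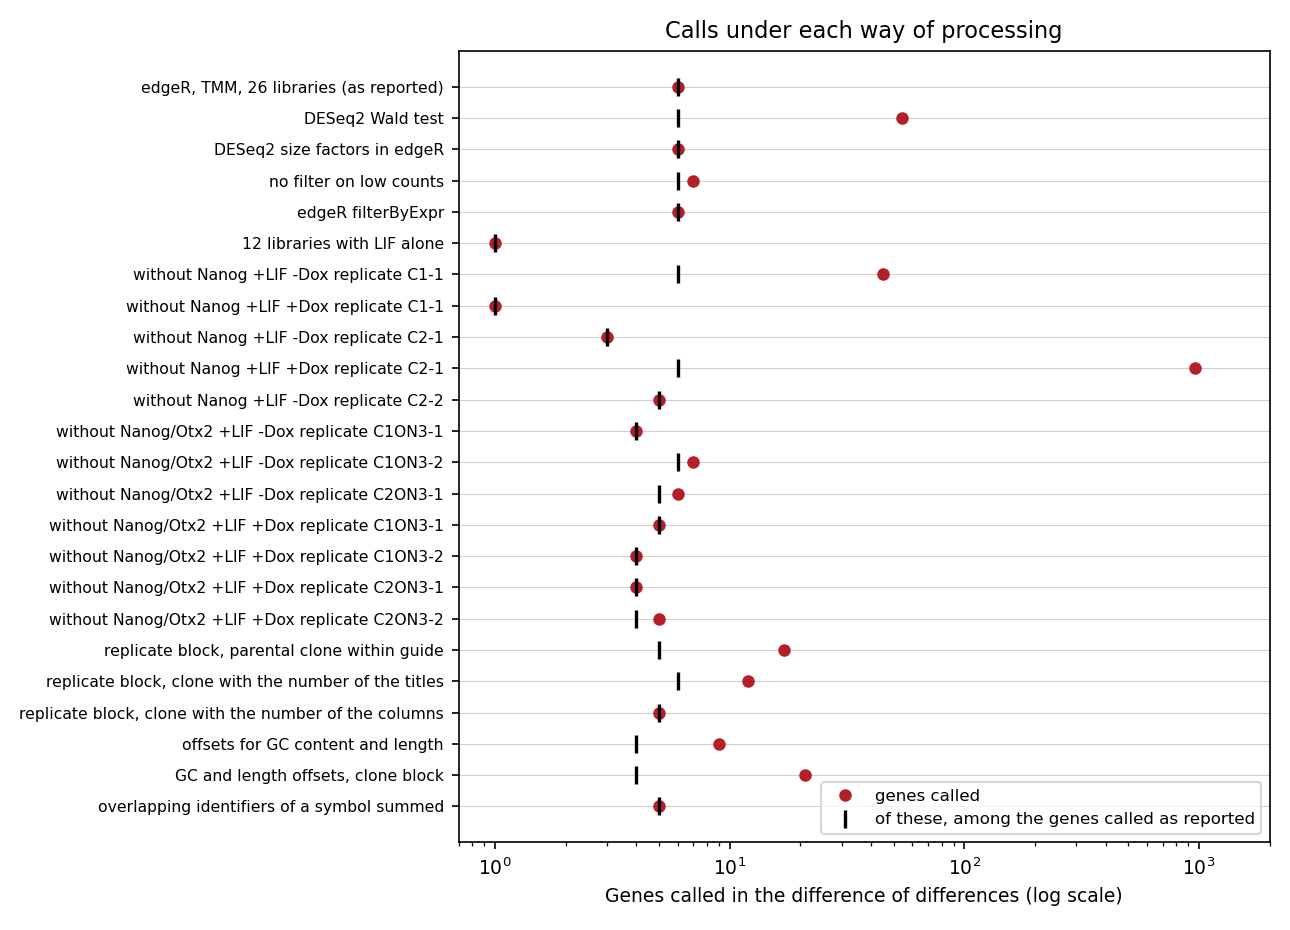
Number of genes called in the difference of the differences under each of 24 ways of processing, on a log axis (red points), with the number of these among the 6 genes called as reported (black ticks). Counts ran from 1 to 960, the extremes coming from leaving out 1 or the other Nanog library with Dox.

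The genes that follow were chosen among those called with the same sign with and without Dox, and not in the difference of the differences. Above a minimum level and without overlap, they had the largest differences with Dox in each direction. Their calls in both conditions were thus part of the choice. Rps27, which encodes a protein of the small ribosomal subunit, had 14473 to 17705 normalised counts in Nanog cells without Dox and 33944 and 16023 with Dox, and was listed at 0 in all 7 Nanog/Otx2 libraries. Against a floor of 3 counts per library it was at least 8335-fold lower with Dox and 2680-fold lower without. Rps27 has near copies in the genome, to which the authors' counting could assign its reads. The pseudogenes Gm10279 and Gm15516 were lower as well, at −11.72 and −10.72 with Dox and −7.92 and −9.13 without. The value of Gm10279 without Dox came from Nanog −Dox C1-1, at 10331 against 18.4 and 0 in the other two Nanog libraries, and was 0.82 (adjusted p = 0.871) without it. Higher in Nanog/Otx2 cells, and at 0 in all 5 Nanog libraries, were Gm13772 (at least 95.1-fold with Dox), Gm15536 (40.9-fold) and AL954710.1 (39.7-fold). The Gm13772 difference with Dox was not called without Nanog +Dox C1-1 (11.85, adjusted p = 0.113). Pseudogenes were 5.06% of the genes tested and 10.4% (161) of those called both with and without Dox.

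Histone genes whose transcripts normally lack a poly(A) tail formed the list with the largest median difference. Of 35 tested, 16 were higher and 4 lower in Nanog/Otx2 cells with Dox, where 28.5% of all genes were called. The same list held 12 higher and 0 lower without Dox, where 12.7% of all genes were called. In the difference of the differences 0 were called. Their median was 2.37 with Dox and 1.34 without, or 1.85 and 1.25 with members at 0 set to their bounds, against 0.06 and −0.01 over all genes. Hist1h3h, a histone H3 gene, was at 0 in all 5 Nanog libraries and at 16.6 to 37.0 in all 7 Nanog/Otx2 libraries. Hist1h2ag had 0 to 3.73 in Nanog cells and 24.1 to 41.2 in Nanog/Otx2 cells with Dox. Without Nanog +Dox C1-1 the list held 12 higher and 1 lower with Dox, and without Nanog −Dox C1-1 it held 9 higher without Dox. The libraries were prepared by poly(A) selection, and the part of the library set in these counts was not tested.

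Of 20 naive pluripotency genes tested, 2 were higher and 2 lower with Dox (median −0.17), where 28.5% of all genes were called. Without Dox 1 was higher (median −0.05), where 12.7% of all genes were called, and 0 were called in the difference of the differences (median −0.17). Nr0b1, a nuclear receptor that binds Oct4, had 1100 and 429 normalised counts in Nanog cells with Dox and 933 to 2092 in Nanog/Otx2 cells (1.05, adjusted p = 0.0424), and was also higher without Dox (1.20, adjusted p = 0.0233). Zfp42, the classic marker Rex1, had 11274 and 13862 against 17188 to 17768 (0.48, adjusted p = 0.0493). Dppa2 (−1.09) and Dppa4 (−0.61), partner proteins of early embryonic chromatin, were lower with Dox. Esrrb, which Nanog activates, had 21280 and 19114 against 15800 to 18084 (−0.26, adjusted p = 0.203). Klf4, with 3816 and 4030 against 4108 to 5911 (0.36, adjusted p = 0.312), Tbx3 (−0.32), Tfcp2l1 (−0.33), Klf5 (0.05), Prdm14 (0.04) and Tet2 (−0.01) were not called either. Without Nanog +Dox C1-1, the call of Nr0b1 remained and those of Zfp42 (0.32), Dppa2 (−0.87) and Dppa4 (−0.29) did not. Among 12 genes of the general pluripotency list, Tcf3 (1.62) and Rif1 (0.72) were higher and Sall4 (−0.42) lower with Dox. Without that library Tcf3 kept its call, while Rif1 (0.67) and Sall4 (−0.15) did not. Tcf3 was also higher without Dox (1.19). This Tcf3 entry is the bHLH factor E2A, not Tcf7l1, the pluripotency regulator once also named Tcf3. Tcf7l1, a member of the Wnt list, was not called with Dox (−0.23, adjusted p = 0.465).

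Formative and primed epiblast genes, the programme in which Otx2 is known to act, were tested under 21 identifiers. With Dox 3 were higher and 0 lower (median 0.53), where 28.5% of all genes were called, and without Dox 2 were higher (median 0.65), where 12.7% of all genes were called. Without Nanog −Dox C1-1 the latter count was 6. The difference of the differences gave 0 calls (median −0.25). Dnmt3a, a de novo DNA methyltransferase, had 2003 and 2765 normalised counts in Nanog cells with Dox and 3987 to 6071 in Nanog/Otx2 cells (1.09, adjusted p = 0.00637). Lef1, a Wnt effector, had 98.8 and 125 against 139 to 262 (0.89, adjusted p = 0.0465). Pou3f1, the POU factor Oct6, had 99.6 and 155 against 168 to 407 under the identifier that held most of its reads (1.03, adjusted p = 0.022), and 104 to 126 against 181 to 300 without Dox (1.13, adjusted p = 0.0177). Without Nanog +Dox C1-1, Dnmt3a (0.86) and Lef1 (0.74) were not called. Fgf5, the usual marker of the formative state, was at 0 to 11.2 in Nanog cells and 4.07 to 21.5 in Nanog/Otx2 cells with Dox (1.76, adjusted p = 0.172), and was called without Nanog +Dox C1-1 (6.95, adjusted p = 0.0463), with 0 counts in the remaining Nanog library with Dox, so that this fitted value is no bound. Sox3 (0.52) and Sema6a (0.55) were not called. Otx2 in Nanog/Otx2 cells with Dox stood at 3214 to 3806 normalised counts beside Fgf5 at 4.07 to 21.5, and a link between them was not tested.

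Markers of lineages that the cultures could hold are given beside the 28.5% of all genes called with Dox, with no test of the lists. Of 11 neuroectoderm genes, Sox11, a SOX factor of early neurons, was higher and Ncam1, a neural adhesion molecule, lower. Sox11 had 9.33 and 10.8 normalised counts in Nanog and 48.7 to 69.3 in Nanog/Otx2 cells with Dox (2.45, adjusted p = 1.08e-04), and 40.0 to 53.6 against 137 to 153 without Dox (1.64, adjusted p = 8.1e-04). Ncam1 had 2040 and 1915 against 809 to 1102 (−1.08, adjusted p = 1.03e-04), and was also lower without Dox (−0.57, adjusted p = 0.0326), a call lost without Nanog −Dox C1-1 (−0.53, adjusted p = 0.0551). Both calls with Dox held without Nanog +Dox C1-1. Among 8 primitive streak genes, Eomes, the T-box factor of mesendoderm, was lower, with 677 and 447 against 141 to 285 (−1.51, adjusted p = 6.43e-04), and 72.4 to 161 against 77.1 to 92.9 without Dox (−0.54, adjusted p = 0.293). Its call held without that library, and its difference of the differences was −0.98 (SE 0.44, adjusted p = 0.431).

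In the extraembryonic endoderm list, Sparc, a secreted matrix protein, was lower with Dox (−0.76), and Amn was higher without Dox (1.76), a call lost without Nanog −Dox C1-1 (1.48, adjusted p = 0.0868). Of 10 trophoblast genes, Hand1 (−2.23) and Tead4 (−0.86) were lower with Dox. Tead4, a partner of YAP, had 964 and 561 against 335 to 497, and Hand1 had 61.5 and 11.7 against 6.11 to 8.35, and neither was called without Nanog +Dox C1-1 (Tead4 −0.45, Hand1 −0.69). Of 16 Hox genes, Hoxa13 (−1.62) and Hoxa4 (−2.46) were lower. Hoxa13 had 435 and 167 normalised counts in Nanog cells with Dox, 74.1 to 152 in Nanog/Otx2 cells with Dox, and 0 to 16.1 in all cells without Dox. Without that library Hoxa4 was −2.50 (adjusted p = 0.0734) and Hoxa13 −0.80 (adjusted p = 0.307). Of 7 fibroblast markers and 7 two-cell-like genes, 0 were called with or without Dox.

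Of 14 Nodal and activin genes, 4 were higher and 0 lower with Dox (median 0.61) and 2 higher without (median 0.19), where 28.5% and 12.7% of all genes were called. Lefty1, the secreted Nodal antagonist, had 52.2 and 33.2 normalised counts in Nanog and 295 to 1397 in Nanog/Otx2 cells with Dox (4.21, adjusted p = 0.0122), and 82.1 to 348 against 190 to 2327 without (3.00, adjusted p = 0.0377). It varied with clone, C1ON3 lying above C2ON3 in both conditions. Acvr2b, an activin receptor, had up to 34.1 against 171 to 222 (2.66, adjusted p = 1.02e-06) and 24.1 to 62.0 against 199 to 268 without Dox (2.16). The receptor Acvr1b (0.80) and the convertase Pcsk6 (0.66) were higher with Dox. Without Nanog +Dox C1-1, Acvr2b kept its call, while Lefty1 (4.50), Acvr1b (0.52) and Pcsk6 (0.61) did not.

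Of 14 BMP and Id genes, 3 were higher and 1 lower with Dox, where 28.5% of all genes were called. Id3, an inhibitor of bHLH factors, was higher, with 106 and 169 normalised counts against 583 to 1029 with Dox (2.48, adjusted p = 5.49e-04) and 42.8 to 95.5 against 278 to 535 without (2.33). Smad6, an inhibitory SMAD, was higher in both conditions (1.33 and 1.86) and the receptor Bmpr2 with Dox (0.98). Bmp4, the ligand, was lower with Dox, at 625 and 590 against 286 to 361 (−0.89, adjusted p = 0.00187), with overlapping groups of 506 to 737 and 425 to 708 without Dox (−0.15, adjusted p = 0.657). Its difference of the differences was −0.73 (SE 0.28, adjusted p = 0.355). Id1 had 274 and 249 against 278 to 579 (0.75, adjusted p = 0.24). Id3 and Bmp4 kept their calls without Nanog +Dox C1-1, and Smad6 (1.26) and Bmpr2 (0.84) did not.

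Of 17 LIF and STAT3 genes, 5 were higher and 0 lower with Dox (median 0.17), where 28.5% of all genes were called. The same share stands beside the FGF, ERK and Wnt genes of this paragraph. Junb, an AP-1 subunit, had 78.3 and 109 normalised counts against 292 to 550 (2.13, adjusted p = 0.00111) and a like difference without Dox (2.14). Pim3 (0.59), Il6st (0.68), Ptpn11 (0.44) and Stat3 (0.31) had smaller differences, and Pim3 was also higher without Dox (0.65). Without Nanog +Dox C1-1, Junb and Pim3 kept their calls, while Il6st (0.48), Ptpn11 (0.44) and Stat3 (0.21) did not. Of 14 FGF and ERK genes, Etv5 (0.50) was higher and Spred2 (−0.30) lower with Dox, and both held without that library. Of 12 Wnt genes, Fzd2 (1.45), Notum (1.72) and Ctnnb1 (0.66) were higher and Sfrp1 (−0.68) lower, and the first 3 held, while Sfrp1 (−0.46) did not. Fzd2, a Wnt receptor, had 14.9 and 20.6 against 47.7 to 57.3 with Dox and was also higher without Dox (1.19).

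Of 15 p53 and stress genes, 3 were higher and 1 lower with Dox, where 28.5% of all genes were called. The same share stands beside the other lists of this paragraph. Bbc3, the BH3-only protein Puma, had 172 and 100 normalised counts against 421 to 502 with Dox (1.77, adjusted p = 1.47e-04) and was also higher without Dox (1.56). The chaperone Hspa1b had 14.9 and 39.5 against 227 to 271 (3.07, adjusted p = 5.98e-06) and was higher without Dox (1.65). Trp53inp1 (0.68) was higher and Asns (−1.01) lower with Dox, and without Nanog +Dox C1-1 they were 0.71 and −0.61 with no call. Of 14 hypoxia and glycolysis genes, Ldha (0.50), Pdk1 (0.68), Pgk1 (0.70) and Slc2a1 (0.86) were higher with Dox and Ldha also without (0.46). Of 5 genes that write or erase DNA methylation, Dnmt1 (0.65) was higher, and of 14 germline genes, Tdrd1 (1.24). Without that library none of these 6 was called, at 0.42 for Ldha, 0.36 for Pdk1, 0.74 for Pgk1, 0.47 for Slc2a1, 0.37 for Dnmt1 and 0.68 for Tdrd1. In 20 lists, 0 members passed the test of the difference of the differences, where 0.0370% of all genes did.

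**Figure D5:**
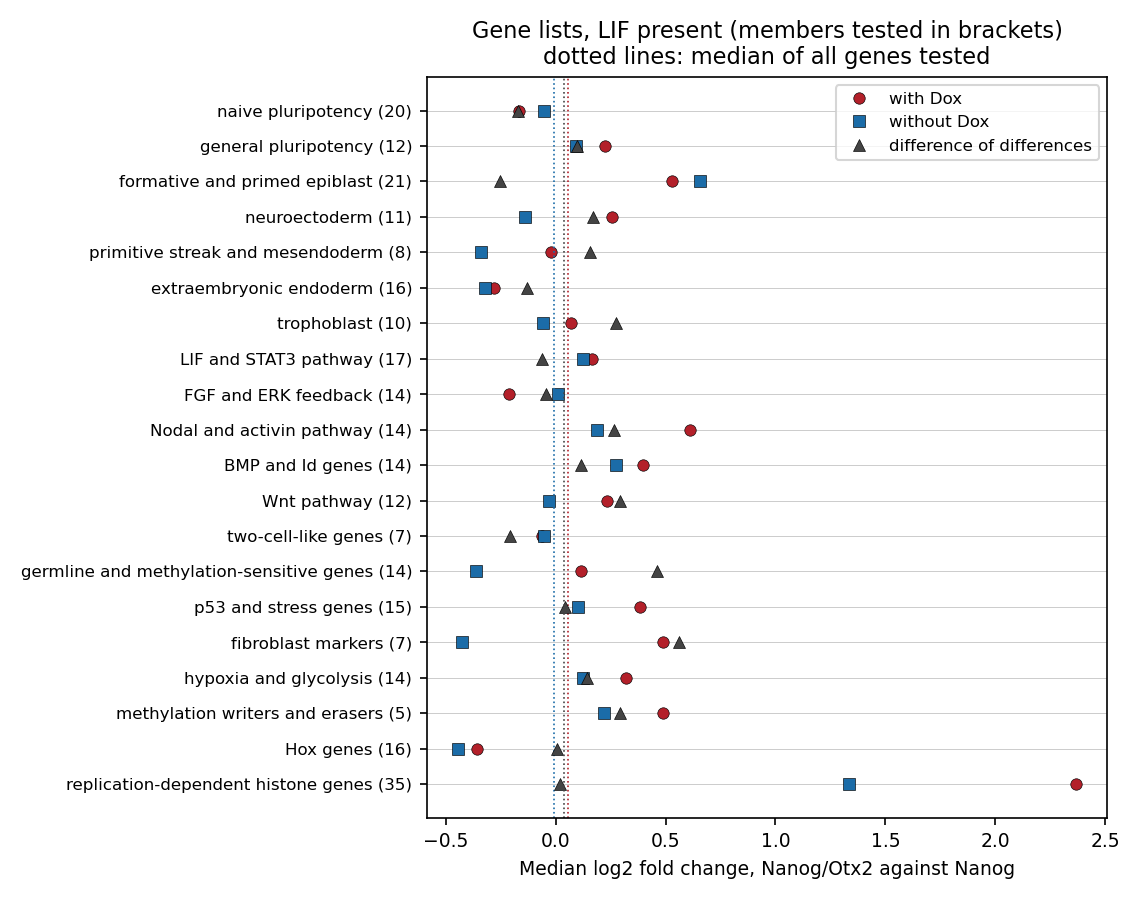
Median log2 difference between Nanog/Otx2 and Nanog cells with Dox (red circles), without Dox (blue squares) and as the difference of the differences (grey triangles) for each gene list, with the number of identifiers tested in brackets; dotted lines are the medians of all genes, at 0.06, −0.01 and 0.04. Replication-dependent histone genes lay farthest right, at 2.37 and 1.34, and the Nodal and activin list at 0.61 with Dox.

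The neighbours of the targeted promoters are given beside the 28.5% of all genes called with Dox. Of 10 annotated genes within 500 kb of Otx2, 4 were tested, and Mudeng was higher with Dox (1.07, adjusted p = 0.00288), with 151 and 162 normalised counts in Nanog and 275 to 385 in Nanog/Otx2 cells. It overlapped without Dox, at 151 to 428 against 307 to 352 (0.25, adjusted p = 0.52), was called there without Nanog −Dox C1-1 (0.69, adjusted p = 0.0112), and its difference of the differences was 0.82 (SE 0.33, adjusted p = 0.389). Peli2 (−0.07) and Exoc5 (0.29) were not called with Dox. Of 31 annotated genes within 500 kb of Nanog, 15 were tested, and Apobec1 was lower with Dox (−0.74, adjusted p = 0.00979), at 451 and 388 against 238 to 266, with a like difference without Dox (−0.57, adjusted p = 0.0624). The call was not kept without Nanog +Dox C1-1 (−0.65, adjusted p = 0.11). Gdf3 (−0.57) and Dppa3 (−0.08), pluripotency genes of the Nanog locus, were not called, and 0 neighbours of either gene passed the test of the difference of the differences.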

How the data were processed

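The authors aligned stranded single-end reads of poly(A) RNA to mm9 with STAR, estimated reads per gene with RSEM and deposited rounded estimated counts. The other deposited table gives a signal, the estimated count over its library's DESeq2 size factor (35 libraries), called normalised counts here. CASAVA 1.8 is in the submitters' processing notes. Both list 37620 genes. The 26 SunTag libraries were fitted in edgeR 4.0.16 (R 4.3.3) with 8 group means (guide, LIF, Dox), TMM and the quasi-likelihood F-test. Genes were tested if every library of at least 1 group held 10 or more normalised counts, and Benjamini-Hochberg adjusted p-values under 0.05 were called. "Called" and "adjusted p" refer to this fit unless named otherwise, log2 differences are those of the fit, and ratios within clone pairs used log2 of normalised counts plus 1.

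Genes were named by a rule: Otx2 and Nanog; genes called with Dox and in the difference of the differences, called in both Dox conditions, or called without Dox and in the difference of the differences, by size; list members called there; genes the study names; and neighbours within 500 kb. Other genes named, list members called with Dox included, were chosen after their values were seen. The members and lists were chosen with earlier results of these data known.

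Clone as a block was an alternative. It took C1, C2, C1ON3 and C2ON3 as separate clones within each guide set. Thus it matched libraries of the same clone, and did not pair C1ON3 with C1 or C2ON3 with C2. Deviations from group means correlated at 0.02 to 0.49 in 9 library pairs of 1 clone, and −0.49 to −0.02 for different clones. The 2 Nanog libraries with Dox mirror each other by this centring, and it builds in part of the other negative values. These correlations thus do not decide for or against a block. DESeq2 1.42.0, other filters and scalings, the 12 libraries with LIF alone, left-out libraries, and, chosen after seeing the data, offsets for GC content and length, another block and summed identifiers were also run. The scripts were tested on simulated counts. Tables were handled in Python 3.11.15 (pandas 2.3.3). Guide spacers came from the study's oligo list and were matched to mm9. Promoter, protein and miRNA sequences were not used here, nor were ChIP-seq, ATAC-seq and the other cell lines. The value of 1 list member is not reported here.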

Additional observations from a re-analysis of the deposited data

Results flagged for a closer look

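The response to Dox differed between the guide sets, by the test of the difference of the differences in edgeR, for 6 genes. These were Otx2 (3.63, adjusted p = 3.5e-07), Ksr2 (2.99, adjusted p = 0.00615), Kif21a (2.16, adjusted p = 0.0184), AU022751 under its first identifier (11.12, adjusted p = 0.00517), Gm3362 (−6.72, adjusted p = 0.0184) and Rpl36a-ps3 (−6.27, adjusted p = 0.0423). Of these, Otx2 was called under all 24 ways of processing.

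Among the 4 Nanog/Otx2 libraries with LIF and Dox, Gm13772 had 843 normalised counts in C2ON3-2 and 204 to 301 in the other 3, a gap of 0.847 of the range. Sox3, a SOX family factor, had 17.8 in C2ON3-2 and 37.6 to 39.3 in the others, a gap of 0.92. Both exceeded 0.829, Dixon's critical value for 4 samples, among 47 genes tested in this way, and chance gives about 1 in 20.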

How the results depend on the processing

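Otx2 kept its direction and calls in all settings. Counts of calls with Dox and without Dox, and of the difference of the differences, were 4624, 2054 and 6. With the 12 LIF libraries alone they were 2906, 780 and 1, of the last 1 also called with Dox in the same direction, against 5 as reported. With DESeq2 the difference of the differences gave 54 calls (49 in the same direction as with Dox), with the replicate block by clone 17 (17), with clone and title number 12 (10), with GC and length offsets 9 (8), and with offsets and clone block 21 (20). The clone block gave 3121 calls without Dox. Leaving out 1 library gave 1800 to 5694 calls with Dox, 1169 to 2949 without, and 1 to 960 for the difference of the differences (1 to 891 in the same direction as with Dox). The count of 6 was 1 without Nanog +Dox C1-1, 960 without Nanog +Dox C2-1, 45 without Nanog −Dox C1-1 and 3 without Nanog −Dox C2-1, and calls without Dox were 1169 and 1311 without Nanog/Otx2 −Dox C1ON3-1 and C1ON3-2. Calls without Dox were 1279 higher and 775 lower as reported, 951 and 889 with offsets, 1454 and 1512 with offsets and block. The replicate block changed no call of Otx2. For Nanog the difference with Dox was called with DESeq2 (−0.97, adjusted p = 0.0464), the 12 LIF libraries (−0.90, adjusted p = 0.00242), and blocks by clone (−0.95), by title number (−1.04) and by column number (−0.92), over a range of adjusted p from 0.00242 to 0.325.

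Signs of uncalled differences of the differences turned as follows. With the clone block they were −0.064 for Fgf5, −0.14 for Gm13772, −0.043 for M6pr and −0.25 for Mfap5. With title numbers they were −0.58, −6.39, −0.066 and −0.24 for these genes. With column numbers they were −0.057 for 6720456H20Rik, −0.11 for M6pr, −0.17 for Mfap5 and 0.10 for Pou3f1. With offsets they were −0.039 for 6720456H20Rik, −0.011 for Foxj2 and −0.18 for Tet2, and with offsets and block −0.041 for Mfap5, −0.050 for Tbx3 and −0.12 for Tet2. DESeq2 gave 0.43 for AL954710.1 and 0.015 for Peli2, and no filter gave −0.0087 for Fgf5. With 1 library left out the ranges were −0.091 to 0.33 for 6720456H20Rik, −0.18 to 0.094 for AL954710.1, −3.09 to 0.027 for Dppa3, −2.11 to 5.23 for Fgf5, −0.026 to 0.25 for Foxj2, −1.15 to 0.95 for Gm10224, −0.35 to 0.15 for Gm10420, −0.47 to 0.77 for Gm13772, −0.053 to 1.43 for Gm15536, −1.32 to 1.81 for Gm8430, −0.079 to 0.28 for Klf5, −0.062 to 0.39 for M6pr, −0.053 to 0.21 for Mfap5, −0.15 to 0.19 for Necap1, −0.20 to 0.21 for Peli2, −0.40 to 0.21 for Pou3f1, −0.37 to 0.0033 for Pou5f1, −0.0023 to 0.40 for Slc2a3, −0.80 to 0.15 for Sox3, −0.27 to 0.22 for Tet2 and −0.43 to 0.0046 for Tfcp2l1. The cause was not tested.

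With 2 Nanog libraries with Dox, 1 from each clone, a left-out library leaves that group with 1, which was assumed to vary like the other groups. The median difference of the differences ran from −0.19 in the shortest of 5 equal bins of transcript length to 0.25 in the longest. By GC content, the median difference with Dox was −0.05 in the lowest of 5 equal bins and 0.50 in the highest. The medians without Dox were −0.15 and 0.36 in these bins. Estimated counts of pseudogenes and of genes with near copies depend on how reads were assigned.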

Other observations

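Without LIF, 923 genes had an unadjusted p under 0.05 in the difference of the differences in edgeR. Of these, 5 were called, all with positive values. Beside Otx2 and Kif21a these were Psmb8, Kcnj12 and Zfp36l3, which with LIF had values of 1.68, 0.29 and 0.68 with no call. Psmb8, an immunoproteasome subunit, had 51.7 to 70.1 normalised counts in Nanog cells without Dox and 9.04 to 17.1 with Dox, and 151 to 173 and 207 to 485 in Nanog/Otx2 cells (3.16, SE 0.49, adjusted p = 0.0113). Kcnj12, an inward rectifier potassium channel, had 19.4 to 35.6 and 2.71 to 7.72 in Nanog cells, and 21.7 to 42.3 and 32.2 to 70.8 in Nanog/Otx2 cells (2.58, SE 0.46, adjusted p = 0.0391). Zfp36l3, a placental RNA-binding protein, had 103 to 134 and 8.57 to 15.4 in Nanog cells, and 76.6 to 99.1 and 50.3 to 63.4 in Nanog/Otx2 cells (2.78, SE 0.43, adjusted p = 0.00914). In these genes the Nanog libraries with Dox were the lowest group without LIF.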
